A study of Homo sapiens with 8 samples.

Results

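The core heterogeneous nuclear ribonucleoproteins (hnRNPs) described here are 10 genes, HNRNPA1, HNRNPA2B1, HNRNPC, HNRNPD, HNRNPF, HNRNPH1, HNRNPK, HNRNPL, HNRNPM and HNRNPU, taken by exact symbol from an RNA-seq table of 17010 genes. All 10 were in the table, and all 10 passed the filter on low counts, which left 16488 genes. The libraries came from PC3, a human prostate cancer cell line that grows without androgen, kept as 3D cultures in medium with 3% serum. Of the 4 groups, 1 received a control siRNA (a small interfering RNA) and 1 an siRNA against the splicing factor SF3B2, both for 72 h, while another was exposed to pladienolide B, a macrolide inhibitor of splicing, at 0.5 µM for 24 h and the last to its solvent DMSO, with no time given in the sources used here. Each group has 2 libraries, and nothing in the labels says whether these are separate cultures. The p-values below therefore reflect the spread of these libraries, which may be technical. The main test takes 1 spread per gene from all 4 groups together. Its p-values thus do not measure the spread of only the 2 groups compared. All groups share 1 cell line, and the siRNA arm lowers SF3B2 without removing it.

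HnRNPs are abundant nuclear proteins that coat pre-mRNA as it is made. Through RNA recognition motifs, quasi-RRMs or KH domains most of them bind short RNA elements. HnRNPs steer splice site choice, often by silencing exons, and also act in export, stability and translation of mRNA. Several members are known to limit their own mRNA, or that of a paralog, through alternative splicing coupled to decay. The U2 snRNP acts at an early step of splicing. Its SF3b complex holds SF3B2 and grips the intron's branch point, and it is this complex that pladienolide B binds.

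Total counts per library ran from 35461248 to 72983584. Levels are CPM, read counts scaled to a common library total, with TMM factors, which rest on genes that differ little, and errors are SDs of 2 libraries. TPM values, which the authors deposited, are used where genes are compared with each other, since TPM is divided by length. A gene counted as called where edgeR's quasi-likelihood test gave a p under 0.05 after Benjamini-Hochberg adjustment over all genes. SF3B2 lay at 36.4 and 30.1 CPM with its siRNA against 228 and 228 CPM with the control siRNA (6.85-fold lower, edgeR adjusted p = 0.0513), and at 458.5 and 632 CPM with the drug against 237 and 248 CPM with DMSO. The epithelial keratin genes KRT8, KRT18 and KRT19 were at 564 TPM or more in each of the 6 libraries without drug, and KLK2 and KLK3, genes of androgen-responsive prostate cells, were not among the listed genes. In the drug libraries KRT8 lay at 140 and 102 TPM against 621 and 624 TPM with DMSO. All 5 epithelial markers on a list were called lower (3 of 5 by DESeq2), as were 35.5% of all genes (34% by DESeq2). Fewer cells of a type and less RNA per cell cannot be told apart in such bulk samples. Of 8 markers of blood, endothelial, stromal and liver cells 5 were not listed, and CD68, PECAM1 and COL1A1 lay at 144 TPM or less in every library, with CD68 and PECAM1 called lower with the drug. That level does not set them apart from all epithelial markers. In the 6 libraries without drug EPCAM (40.4 to 62.9 TPM) and CDH1 (25.9 to 52.2 TPM) lay below CD68 (82.2 to 144 TPM). The part of these markers in the drug results was not tested.

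The members lie on 9 chromosomes (GRCh38, GENCODE release 44). HNRNPA1 spans 54280193 to 54287088 on chromosome 12, HNRNPC 21209136 to 21269494 on chromosome 14, HNRNPF 43385617 to 43409186 on chromosome 10 and HNRNPK 83968083 to 83980631 on chromosome 9. HNRNPL (38836370 to 38852347) and HNRNPM (8444767 to 8489114) share chromosome 19. HNRNPU lies on chromosome 1, HNRNPD on chromosome 4, HNRNPH1 on chromosome 5 and HNRNPA2B1 on chromosome 7. In the canonical transcripts the coding sequence of HNRNPF sits in 1 exon, behind introns in its 5′ part, whereas the other 9 genes have 7 (HNRNPC) to 16 (HNRNPM) coding exons. Introns add up to 2618 bases in HNRNPA1 and to 57131 bases in HNRNPC.

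The regions before the RefSeq start are shown for 4 genes with a single listed start, HNRNPC and HNRNPM, which rose with the drug, and HNRNPA2B1 and HNRNPD, which were not called on the TMM scale. RefSeq starts and GENCODE gene spans differ. By the GENCODE spans the regions of HNRNPA2B1 and HNRNPD lie inside the gene, and those of HNRNPC and HNRNPM overlap it in part. Each run holds the 250 bases before the start (RefSeq, GRCh38.p14), read 5′ to 3′ on the gene's strand, at chr14:21269443-21269692 (minus), chr19:8444725-8444974 (plus), chr7:26200747-26200996 (minus) and chr4:82373992-82374241 (minus) in the order printed. Capitals mark matches, on either strand, to 5 motifs, none of which overlap in these runs. The first is the CCAAT box, whose name gives its letters. The GC box was searched as GGGCGG on both strands. The letters searched for the E-box were CACGTG, a palindrome. For the TATA motif the search used TATAAA in either orientation. The ETS motif, bound by factors of that family, was searched as CCGGAAG.
HNRNPC: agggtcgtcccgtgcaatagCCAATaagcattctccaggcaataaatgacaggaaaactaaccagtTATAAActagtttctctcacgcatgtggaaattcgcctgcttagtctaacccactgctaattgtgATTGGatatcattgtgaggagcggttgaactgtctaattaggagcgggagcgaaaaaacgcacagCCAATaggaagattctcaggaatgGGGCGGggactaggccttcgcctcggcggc
HNRNPM: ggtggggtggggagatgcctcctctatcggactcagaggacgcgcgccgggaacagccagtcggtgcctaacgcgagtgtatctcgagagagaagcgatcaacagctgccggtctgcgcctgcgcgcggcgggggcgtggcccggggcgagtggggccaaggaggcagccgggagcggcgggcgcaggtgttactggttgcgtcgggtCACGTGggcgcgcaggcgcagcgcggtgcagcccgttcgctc
HNRNPA2B1: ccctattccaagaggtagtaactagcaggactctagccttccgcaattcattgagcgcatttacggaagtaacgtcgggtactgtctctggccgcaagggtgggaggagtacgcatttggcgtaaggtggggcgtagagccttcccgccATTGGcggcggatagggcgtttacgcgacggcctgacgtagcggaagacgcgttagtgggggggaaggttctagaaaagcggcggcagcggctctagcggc
HNRNPD: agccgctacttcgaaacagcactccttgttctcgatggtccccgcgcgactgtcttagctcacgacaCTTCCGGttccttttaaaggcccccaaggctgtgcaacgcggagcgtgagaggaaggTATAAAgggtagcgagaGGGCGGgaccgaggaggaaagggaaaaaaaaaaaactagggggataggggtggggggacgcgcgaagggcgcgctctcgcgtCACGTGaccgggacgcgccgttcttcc
HNRNPC holds 3 CCAAT boxes, 1 GC box and 1 TATA motif, and HNRNPM holds 1 E-box alone. HNRNPA2B1 holds 1 CCAAT box, and HNRNPD holds 1 match to each of the other 4 motifs. Of all 35116 windows of this length the CCAAT box is found in 32%, the GC box in 42.6%, the E-box in 6.34%, the TATA motif in 10.7% and the ETS motif in 8.52%. The 9 members with a listed start have 15 such windows, of which 8 hold a CCAAT box and 9 a GC box.

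In the control libraries the 10 mRNAs covered a narrow range of levels per length, from HNRNPD, an AU-rich element binding protein, to HNRNPH1, which binds runs of G. With the control siRNA HNRNPH1 lay at 371 and 393 TPM and HNRNPD at 79.9 and 83.8 TPM. With DMSO the values were 380 and 419 TPM for HNRNPH1 and 79.4 and 86.3 TPM for HNRNPD. The order by mean TPM with DMSO was HNRNPH1, HNRNPC, HNRNPA1, HNRNPK, HNRNPA2B1, HNRNPF, HNRNPL, HNRNPU, HNRNPM and HNRNPD. Neighbours whose libraries overlapped there were HNRNPH1 and HNRNPC, HNRNPA1 and HNRNPK, HNRNPK and HNRNPA2B1, and HNRNPF and HNRNPL. In the control siRNA libraries 1 pair of neighbours overlapped, HNRNPK and HNRNPA1, and these had changed places. Between control siRNA and DMSO the members' log2 fold changes were −0.09 for HNRNPA2B1, −0.08 for HNRNPC and between −0.02 and 0.03 for the other 8, none was called, and 0 of 16488 genes were called in either direction (0%; before adjustment 152 had a p under 0.05), nor did DESeq2 call any (0 genes).

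**Figure D1:**
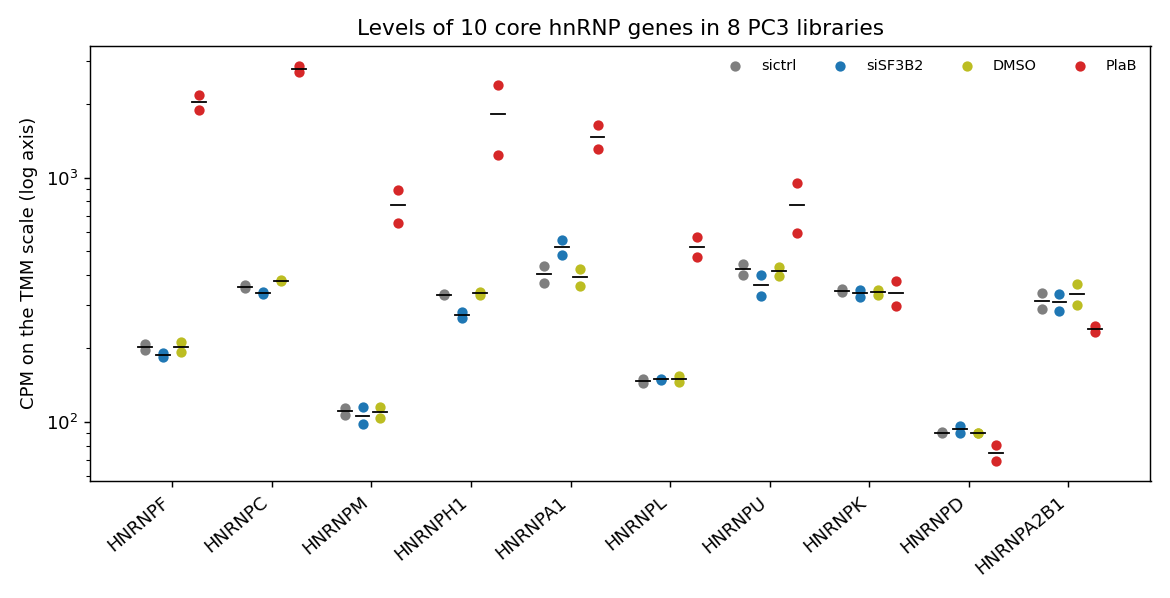
Level of each of the 10 core hnRNP genes in every library (CPM on the TMM scale, log axis), with 2 points per group, black bars at the group mean and genes ordered by their drug response. The 2 PlaB (pladienolide B) points stand above all other libraries for the 7 genes from HNRNPF to HNRNPU, lie on both sides of them for HNRNPK, and lie below for HNRNPD and HNRNPA2B1.

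Knockdown of SF3B2 left the 10 mRNAs close to their control levels, and 0 of 10 were called in either direction. Over all genes 0 of 16488 were called (0%), and before adjustment 638 genes (3.87%) and 0 of the 10 members had a p under 0.05. Since edgeR called no gene in the main test, not even SF3B2, the lack of calls does not show that the members were unchanged. With RLE scaling, and likewise with only the 2 groups compared in the fit, edgeR called 1 gene lower. DESeq2 called 34 genes (0.0515% of those tested higher and 0.167% lower) and 0 members. The members' log2 fold changes had a median of −0.05, against 0.01 for all genes, and spanned −0.28 to 0.37. The signed fold changes of the members lay between −1.21 (HNRNPH1) and 1.29 (HNRNPA1) in the authors' deposited table, each with an adjusted p of 1.00 there.

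HNRNPA1, a shuttling silencer of exons, lay at 557 and 481 CPM with SF3B2 siRNA and at 434 and 369 CPM with the control siRNA. The groups did not overlap, and the log2 fold change was 0.37 ± 0.24 (SE). HNRNPH1 lay at 265 and 281 CPM against 329 and 333 CPM (−0.28 ± 0.31), with both knockdown libraries below both controls. HNRNPU, the large scaffold attachment factor that binds RNA and chromatin, had 327 and 399.8 CPM against 400.0 and 443 CPM (−0.21 ± 0.27), and its groups came within 1 CPM of each other. The other 7 members had log2 fold changes between −0.10 and 0.04. In all 1 member lay higher and 4 lower without overlap (HNRNPC and HNRNPF are the other 2), where 19.9% and 19.2% of all genes did so.

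With pladienolide B 7 of the 10 core hnRNP mRNAs were called higher on the TMM scale and 0 were called lower. HNRNPF, HNRNPC, HNRNPM, HNRNPH1, HNRNPA1, HNRNPL and HNRNPU rose by 1.86-fold to 10.04-fold, while HNRNPK, HNRNPD and HNRNPA2B1 did not pass. Of all 16488 genes 32.5% were called higher and 35.5% lower. The members' median log2 fold change was 1.86, or 1.96 above that of all genes (−0.11). By DESeq2 the same 7 members were called (36% of all genes higher and 34% lower), and in the authors' deposited table the same 7 had an adjusted p under 0.05.

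The drug libraries stand apart from the other 6. Their median count per gene was 227 and 223.5 against 871 to 1399.5, and the median absolute log2 ratio between their replicates was 0.60 against 0.17 to 0.32 in the other groups. The part of this in the results was not tested.

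The largest rise was that of HNRNPF, a G-run binding paralog of HNRNPH1. It lay at 213 and 194 CPM with DMSO and at 1893 and 2187 CPM with the drug, a 10.04-fold rise (log2 fold change 3.33 ± 0.23, edgeR adjusted p = 2.04e-05). Its replicates lay close together in both groups, and the drug libraries stood far above all 6 others. HNRNPH1 had 332 and 340 CPM with DMSO against 1242 and 2406 CPM with the drug (2.44 ± 0.33, edgeR adjusted p = 0.000329). Replicate 2 thus stood well above replicate 1, and without replicate 2 the log2 fold change was 1.88. The TPM ratio of HNRNPF to HNRNPH1 was 0.522 and 0.461 with DMSO and 1.21 and 0.742 with the drug, so both drug libraries lay above both DMSO libraries.

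HNRNPC, which binds uridine tracts and competes there with the splicing factor U2AF, lay at 382 and 376 CPM with DMSO and at 2874 and 2700 CPM with the drug (7.35-fold, log2 fold change 2.88 ± 0.22, edgeR adjusted p = 2.61e-05). HNRNPM, which binds GU-rich elements, had 104 and 115 CPM against 889 and 650.5 CPM (7.02-fold, 2.81 ± 0.24, edgeR adjusted p = 3.90e-05). Replicate 1 was the higher drug library for HNRNPM, unlike for HNRNPH1.

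HNRNPA1 rose from 424 and 361 CPM to 1308 and 1636 CPM (1.91 ± 0.24, edgeR adjusted p = 0.000239). HNRNPL, which binds CA repeats, rose from 145 and 154 CPM to 473 and 571 CPM (1.80 ± 0.20, edgeR adjusted p = 0.000115). HNRNPU rose from 397 and 429.5 CPM to 592 and 947 CPM (0.90 ± 0.27, edgeR adjusted p = 0.0188). Of these HNRNPU was the least stable. Its call was lost with library size alone (0.03, adjusted p = 0.926), without DMSO replicate 1 (0.83, adjusted p = 0.104) or 2 (0.94, adjusted p = 0.0746) and without pladienolide B replicate 2 (0.51, adjusted p = 0.0501), and over all alternatives its adjusted p ran from 0.000581 to 0.926.

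The other 3 members held their level on the TMM scale or lay slightly lower. HNRNPK, a KH-domain protein that binds C-rich sequences, had 348 and 331 CPM with DMSO and 297 and 377 CPM with the drug (−0.01 ± 0.21, edgeR adjusted p = 0.972), with the drug libraries on both sides of the DMSO libraries. HNRNPD had 90.3 and 90.4 CPM against 80.2 and 69.3 CPM (−0.27 ± 0.18, edgeR adjusted p = 0.212). HNRNPA2B1, the close paralog of HNRNPA1, had 302 and 368 CPM against 232 and 247 CPM (−0.48 ± 0.21, edgeR adjusted p = 0.0728). For HNRNPD and HNRNPA2B1 the drug libraries lay below both DMSO libraries, as for 44.1% of all genes, and for the 7 called members they lay above, as for 38.6%.

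What is said of these 3 genes depends on the processing. Without the filter on low counts HNRNPA2B1 was called lower (−0.55, edgeR adjusted p = 0.0482), and without pladienolide B replicate 1 HNRNPD was (−0.39, edgeR adjusted p = 0.0468). With library size alone the transcriptome's median moved to −0.97, and HNRNPA2B1 (−1.36 ± 0.23), HNRNPD (−1.15 ± 0.18) and HNRNPK (−0.87 ± 0.22) were called lower (edgeR adjusted p of 0.00113, 0.000711 and 0.00786), as were 51.2% of all genes, with 20.1% higher. The 6 members from HNRNPF to HNRNPL in the order of response were called higher under TMM, RLE and library-size scaling and by DESeq2. Relative to the median of all genes, the members' median was 1.96 under each of these 4 settings. These settings move all genes by a similar amount, which the subtraction removes. This agreement therefore follows from the measure and does not test the scaling.

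**Figure D2:**
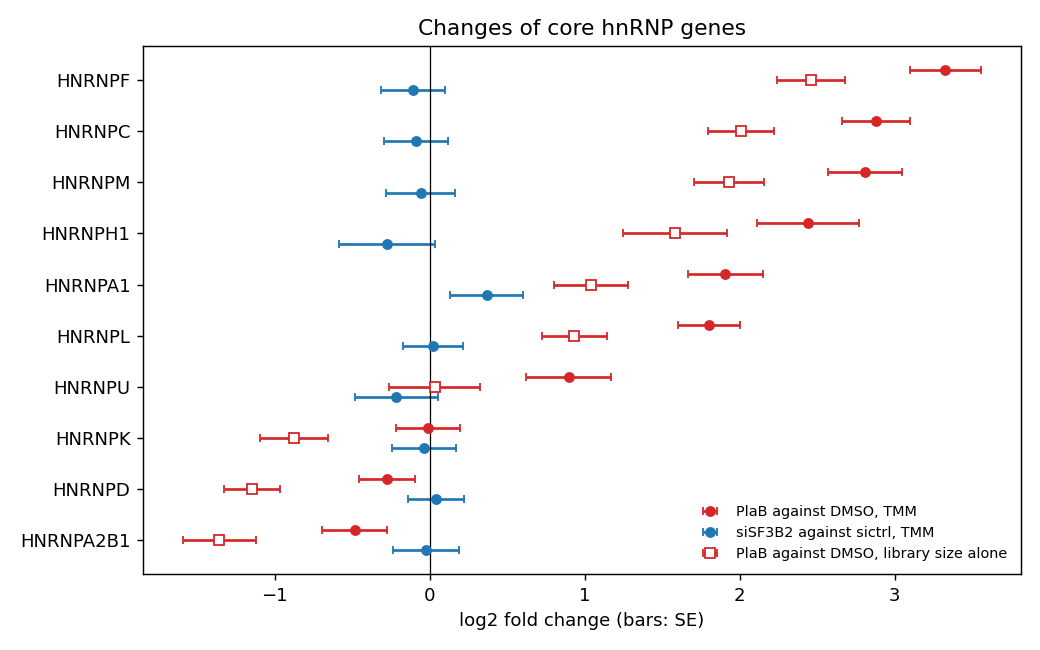
Log2 fold change of each member with its SE, for pladienolide B (PlaB) against DMSO with TMM (filled red) and library size alone (open red), and for SF3B2 siRNA (siSF3B2) against control siRNA (sictrl) with TMM (blue). The siRNA values lie between −0.28 and 0.37, the drug values spread from −0.48 to 3.33, and library-size scaling moves every drug value to the left by a similar amount.

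The drug effect and the siRNA effect differed in the test of their difference for 7 of 10 members, all with a larger effect of the drug, where 25.2% of all genes were called in this direction and 28.5% in the other. The difference in log2 fold change was 3.43 ± 0.30 for HNRNPF, 2.96 ± 0.30 for HNRNPC, 2.87 ± 0.32 for HNRNPM, 2.72 ± 0.45 for HNRNPH1, 1.78 ± 0.27 for HNRNPL, 1.54 ± 0.33 for HNRNPA1 and 1.11 ± 0.38 for HNRNPU (edgeR adjusted p from 0.000157 to 0.0393). HNRNPA1 (0.65, adjusted p = 0.126) and HNRNPU (0.23, adjusted p = 0.660) lost this call with library size alone, and HNRNPU also without any 1 of the control siRNA, SF3B2 siRNA or DMSO libraries (0.95 to 1.25, adjusted p from 0.0635 to 0.126). The arms differ in duration, 24 h against 72 h, as well as in agent.

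The make-up of the hnRNP pool does not depend on library scaling. As shares of the summed TPM of the 10 genes, HNRNPF went from 8.59% and 7.79% with DMSO to 19.6% and 19.1% with the drug, and HNRNPC from 15.8% and 15.6% to 29.2% and 22.9%. HNRNPM went from 4.54% and 4.89% to 10.5% and 6.10%. At the other end HNRNPK went from 13.5% and 12.0% to 2.92% and 3.23%, HNRNPA2B1 from 10.2% and 12.5% to 1.93% and 1.77%, and HNRNPD from 3.44% and 3.49% to 0.825% and 0.601%. In each of these 6 genes the drug libraries lay outside the range of the other 6 libraries. The share of 3 members that were called higher in CPM lay below that range as well. HNRNPU went from 6.28% and 6.81% to 2.43% and 3.29%, HNRNPA1 from 13.8% and 12.04% to 10.4% and 10.9%, and HNRNPL from 7.52% and 8.001% to 6.16% and 6.32%. HNRNPH1 overlapped, with 16.4% and 16.9% against 16.1% and 25.8%. A share of this pool has no counterpart over all genes. In CPM, a different measure, drug libraries lay above both DMSO libraries for 38.6% of all genes and below for 44.1%.

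The part of the pool that would have to change hands between genes to turn one make-up into another came to 29.4 percentage points between drug and DMSO, against 11.5 between the drug replicates and 4.21 between the DMSO replicates. Between SF3B2 siRNA and control siRNA it was 4.71 percentage points, less than the 4.97 between the SF3B2 siRNA replicates. The main mover in that arm was HNRNPA1, with 18.4% and 16.1% of the pool against 14.01% and 12.4%. The summed TPM of the 10 genes was 2309 and 2477 with DMSO and 4349 and 6274 with the drug, and lay between 2003 and 2380 in the 4 siRNA libraries. With the drug the order by mean TPM became HNRNPC, HNRNPH1, HNRNPF, HNRNPA1, HNRNPM, HNRNPL, HNRNPK, HNRNPU, HNRNPA2B1 and HNRNPD, and the first 3 overlapped in their libraries. Further neighbours that overlapped were HNRNPA1 and HNRNPM, HNRNPM and HNRNPL, HNRNPK and HNRNPU, and HNRNPU and HNRNPA2B1.

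**Figure D3:**
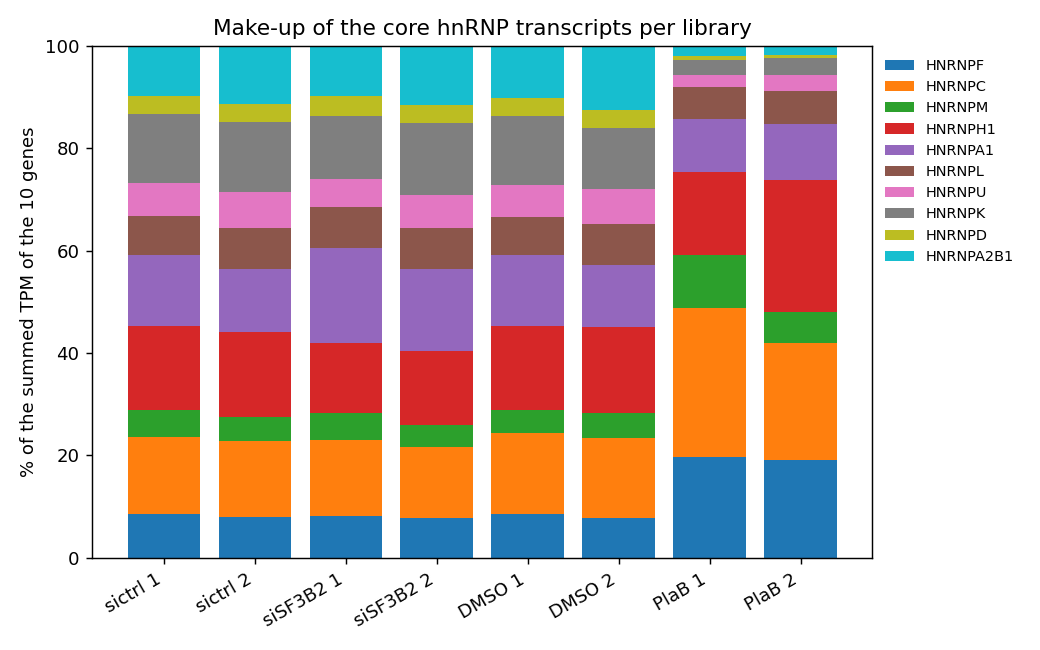
Share of each member in the summed TPM of the 10 genes, one stacked bar per library. The 6 libraries without drug look alike, while in both pladienolide B (PlaB) libraries HNRNPF and HNRNPC take a larger part and HNRNPK, HNRNPD and HNRNPA2B1 a smaller one.

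Ratios between paralogous genes differed between the drug and DMSO libraries. The TPM ratio of HNRNPA1 to HNRNPA2B1 was 1.36 and 0.963 with DMSO and 5.39 and 6.18 with the drug. For HNRNPD and its paralog HNRNPDL it went from 0.733 and 0.707 to 0.107 and 0.0962, since HNRNPDL rose from 183 and 192 CPM to 1121 and 1083 CPM (2.55 ± 0.21, edgeR adjusted p = 3.13e-05). The ratio of HNRNPL to HNRNPLL went from 7.50 and 7.23 to 13.5 and 24.4. In each of these 3 pairs the 2 drug libraries lay outside the range of all 6 others. How often this holds for pairs over all genes was not counted.

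Among 24 other hnRNP genes on a list, 22 were in the table, and 11 rose and 5 fell with the drug, with 6 not called and a median log2 fold change of 0.70, against −0.11 for all genes. Of all genes 32.5% were called higher and 35.5% lower. With library size alone 10 of the 22 were called higher and 9 lower and the median was −0.17, where 20.1% and 51.2% of all genes were called. The largest 3 rises were those of genes whose coding sequence is in 1 exon, while HNRNPA1L2, which also has 1, had the smallest called rise (0.94 ± 0.24), lost with library size alone (0.08, adjusted p = 0.778). HNRNPA0, an intronless relative of HNRNPA1, went from 183 and 159.5 CPM to 5466 and 2926 CPM (4.61 ± 0.37, edgeR adjusted p = 3.15e-05), and the intronless PCBP1, a poly(C)-binding protein (hnRNP E1), from 254 and 272 to 6219 and 3625 CPM (4.22 ± 0.33, edgeR adjusted p = 3.08e-05). HNRNPH2, the X-linked paralog of HNRNPH1, went from 91.9 and 85.0 to 1122 and 1111 CPM (3.66 ± 0.21, edgeR adjusted p = 1.75e-05). HNRNPA3 (1.49 ± 0.19) and HNRNPR (2.18 ± 0.30) rose too.

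The largest falls were those of PTBP3 and PCBP3. PTBP3, a paralog of the polypyrimidine tract-binding protein, went from 81.9 and 104 CPM to 5.80 and 5.79 CPM (−4.01 ± 0.33, edgeR adjusted p = 3.83e-05). Its paralog PTBP1 (hnRNP I) rose from 219 and 212 to 762 and 1399 CPM (2.33 ± 0.31, edgeR adjusted p = 0.000303). Likewise the multi-exon PCBP2, PCBP3 and PCBP4 fell by 1.74, 3.97 and 1.87 on the log2 scale beside the rise of PCBP1. RALY, a relative of HNRNPC, fell by 0.85 (adjusted p = 0.0366), a call lost with RLE scaling (−0.68, adjusted p = 0.0805) and by DESeq2 (adjusted p = 0.0670). HNRNPLL (0.45) and HNRNPUL1 (−0.24) did not pass in edgeR, while DESeq2 called HNRNPLL higher (adjusted p = 0.0457), and with library size alone HNRNPLL changed sign (−0.43) and HNRNPUL1 was called lower (−1.11). With SF3B2 siRNA 0 of these 22 genes were called, as were 0% of all genes, and their log2 fold changes ran from −0.29 to 0.34.

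Of 4 genes that act on hnRNPs, TNPO1, the transportin that carries HNRNPA1 into the nucleus, fell with the drug from 115.5 and 110.3 to 14.7 and 35.3 CPM (−2.18 ± 0.42, edgeR adjusted p = 0.00227). Its paralog TNPO2 (0.56) and the arginine methyltransferase genes PRMT1 (0.44) and PRMT5 (−0.02) were not called. With library size alone PRMT5 was called lower (−0.89, edgeR adjusted p = 0.00346), and TNPO2 and PRMT1 had negative values (−0.30 and −0.44). PRMT5 had 0.14 with RLE and by DESeq2. The SR proteins, splicing factors that mostly favour exon inclusion, had 10 of 11 tested genes higher, 0 lower and a median of 2.26, which stands beside 7 of 10 and 1.86 for the core hnRNPs. With library size alone these were 8 higher and 1 lower of 11 and 6 higher and 3 lower of 10. Of all genes 32.5% were higher and 35.5% lower on the TMM scale, and 20.1% and 51.2% with library size alone. Of the called SR genes SRSF2 had the largest rise (4.01 ± 0.26) and SRSF7 the smallest (0.87 ± 0.25), which was lost with library size alone (−0.00099, adjusted p = 0.998). The difference between these lists was not tested.

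Drug responses went with exon number across the transcriptome, and the place of the core hnRNPs within their classes is given beside this. Among 12803 annotated protein-coding genes the median log2 fold change on the TMM scale was 1.12 for 810 genes with 1 coding exon, −0.42 for 2159 genes with 7 to 9, −0.65 for 2077 genes with 10 to 13 and −0.81 for 1947 genes with 14 to 20. HNRNPF, with 1 coding exon, lay at 3.33, above the upper quartile of its class (2.44). The other 6 called members also lay above the upper quartiles of their classes, which were 0.88 for HNRNPC with 7 coding exons, 0.79 for HNRNPA1 with 10, HNRNPH1 with 12 and HNRNPL with 13, and 0.54 for HNRNPU with 14 and HNRNPM with 16. HNRNPD with 8, HNRNPA2B1 with 10 and HNRNPK with 15 lay between the median and the upper quartile of theirs. Spearman's rho between coding exons and log2 fold change was −0.26 over the 10 members, −0.44 over all 32 hnRNP genes in the table and −0.27 over the 12803 genes, all from the same 4 libraries. For total intron length the sign was positive over the 10 members (0.53) and negative over the 32 (−0.42), and these are descriptions of few genes.

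**Figure D4:**
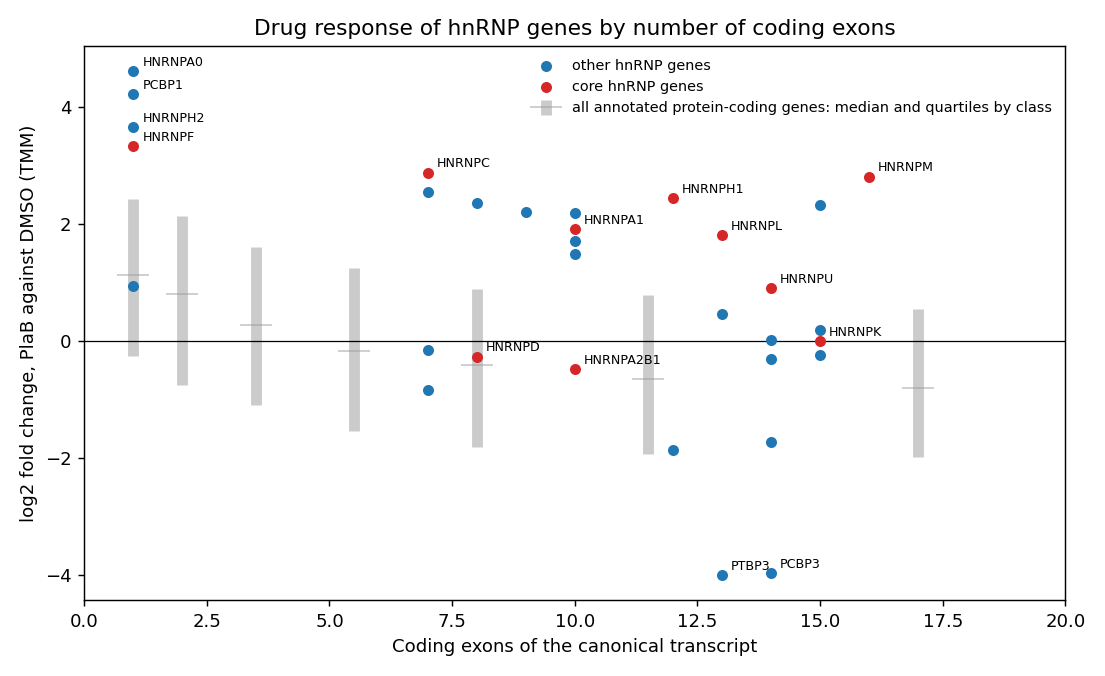
Log2 fold change with pladienolide B (PlaB) against DMSO (TMM scale) by the number of coding exons in the canonical transcript, for core hnRNP genes (red), other hnRNP genes (blue) and the median and quartiles of all annotated protein-coding genes by class (grey, placed at the middle of each class). Of the 5 hnRNP genes with 1 coding exon 4 lie above 3, and HNRNPM, with 16, lies at 2.81.

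Counts of HNRNPA1 carry a limit, since near-identical pseudogenes can take some of its reads. The table lists 13 HNRNPA1 pseudogenes, and together their counts came to between 7.74% and 8.20% of the HNRNPA1 count in the 6 libraries without drug and to 7.15% and 6.99% with the drug. Of 14 tested hnRNP pseudogenes 12 were called higher with the drug and 0 lower on the TMM scale, with a median log2 fold change of 1.44. Of all genes 32.5% were called higher and 35.5% lower. Before scaling, the summed counts of the 13 HNRNPA1 pseudogenes were 2139 and 2590 with DMSO and 2454 and 2686 with the drug. Pseudogene calls with library size alone are not given here. HNRNPA2B1 overlaps CBX3 and NFE2L3, and HNRNPU overlaps COX20, each on the opposite strand, so these counts are uncertain where counting ignored strand, a setting for which the sources used here give no value. HNRNPL overlaps a protein-coding gene and a long non-coding RNA gene on its own strand, and HNRNPA1 a long non-coding RNA gene, so that their counts are uncertain with either setting.

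By their profile over the 8 libraries the 5 protein-coding genes closest to the members' median profile were MAPRE1, PPM1A, ABHD17B, THUMPD3 and UBE2G1. Their root mean square distance, in log2 CPM after centring, was 0.048 to 0.069 among 10659 candidates. Their drug log2 fold changes of 1.79 to 1.94 lay near the members' median. This follows from the choice of the genes by their profile over the same libraries.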

How the data were processed

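RNA-seq counts of 8 PC3 libraries in 4 groups of 2 were analysed. The authors deposited 1 table with whole-number read counts per gene, not normalized, next to FPKM and TPM values, log2 values scaled by the authors, a signed fold change (a score) and an adjusted p-value per comparison, per the file headers. FPKM and log2 columns were not used. The build was GRCh38, and Bowtie2 2.3.5.1, HISAT2 2.10, Trimmomatic 0.38 and edgeR are named, without their roles, in the submitters' processing notes. For the counter and its strand setting the sources used here give nothing. Genes with no read in a library are not in the table.

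The main test of the counts was that of edgeR 4.0.16 under R 4.3.3 (quasi-likelihood F-test, robust, TMM, filterByExpr with minimum count 10, all groups in 1 fit without covariates, 4 residual degrees of freedom, two-sided). Alternatives were RLE and library-size scaling, DESeq2 1.42.0, no filter, a replicate block, only the groups compared, and each library left out. The script was tested on simulated data. With 2 libraries a group an exact permutation test of a single value cannot reach 0.05, so none was run. Replicates differed beyond sampling noise (chi-square per degree of freedom from 55.8 to 308). Of 17010 genes 15083 matched a GENCODE release 44 gene. The rule names all members in every comparison, and ranges stand for some of those near 0. Of the other lists, the rule names the called genes with the largest and smallest change, close paralogs of members (HNRNPH2, HNRNPA3, HNRNPDL, HNRNPLL, RALY, HNRNPUL1, HNRNPR) and the intronless HNRNPA0 and PCBP1, and, of protein-coding genes with a mean of at least 5 CPM, the 5 nearest in profile. PTBP1, PCBP2, PCBP3, PCBP4, HNRNPA1L2, TNPO2, PRMT1, PRMT5 and the read-through genes fall outside it and were chosen after their values were seen. Members and lists were chosen with earlier results of these data known.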

Additional observations from a re-analysis of the deposited data

How the results depend on the processing

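The count of 7 members called higher with the drug stayed within 1.5 times of itself under every alternative run. With library size alone 3 members were called lower with the drug and 3 in the difference of the effects (HNRNPA2B1, HNRNPD and HNRNPK in both), where TMM gave 0. Of all genes 51.2% and 44.4% were called lower there. Without the filter on low counts 1 was lower, HNRNPA2B1 (−0.55, edgeR adjusted p = 0.0482). With single libraries left out the count called lower ran from 0 to 1, the 1 being HNRNPD without pladienolide B replicate 1 (−0.39, adjusted p = 0.0468). The members' median above that of all genes then ran from 1.88 to 2.14 for the drug and from 1.70 to 1.98 for the difference. HNRNPK changed sign with RLE scaling (0.15), by DESeq2 (0.15) and with only the groups compared (0.024), and in the difference with library size alone (−0.86, adjusted p = 0.0437) and without the filter (−0.036). The cause was not tested.

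Same-numbered libraries deviated together between groups, with correlations over genes from 0.118 (DMSO and pladienolide B) to 0.429 (control siRNA and DMSO), but the labels do not say that the number marks a shared culture or day, and 2 pairs per comparison cannot settle it. With a replicate block 7 members were called higher and 1 lower with the drug (HNRNPA2B1, −0.48, edgeR adjusted p = 0.0349), and 0 with SF3B2 siRNA.

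Values near 0 changed sign between control siRNA and DMSO. HNRNPF had 0.0097 with RLE and 0.0098 by DESeq2, and with library size alone HNRNPA1 had −0.025, HNRNPD −0.058, HNRNPK −0.036, HNRNPM −0.051 and HNRNPU −0.031. HNRNPD had −0.0050 without the filter and −0.00020 with only these groups. With single libraries left out this comparison ran from −0.089 to 0.15 for HNRNPA1, −0.23 to 0.056 for HNRNPA2B1, −0.0023 to 0.0029 for HNRNPD, −0.069 to 0.066 for HNRNPF, −0.013 to 0.059 for HNRNPK, −0.065 to 0.020 for HNRNPL, −0.059 to 0.084 for HNRNPM and −0.047 to 0.10 for HNRNPU. For SF3B2 siRNA it ran from −0.14 to 0.091 for HNRNPA2B1, −0.0073 to 0.084 for HNRNPD, −0.088 to 0.0054 for HNRNPK, −0.011 to 0.053 for HNRNPL and −0.19 to 0.054 for HNRNPM. For HNRNPK it ran from −0.20 to 0.15 with the drug and −0.16 to 0.18 in the difference. The fit of only the groups compared has no value for the difference, which needs all 4 groups. A group left with 1 library is assumed to vary like the others.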

Other observations

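A pair of read-through transcripts that join an hnRNP gene to a neighbour, chosen after their values were seen, is listed in the table. HNRNPUL2-BSCL2 had 31.0 and 16.1 CPM with DMSO and 93.3 and 120 CPM with pladienolide B (log2 fold change 2.18 ± 0.33, edgeR adjusted p = 0.000589), while HNRNPUL2 itself was not called (−0.31). With SF3B2 siRNA HNRNPUL2-BSCL2 lay at 8.66 and 9.79 CPM against 20.2 and 18.7 CPM (−1.08 ± 0.32, edgeR adjusted p = 1.00). RPL36A-HNRNPH2 had 5.44 and 4.08 CPM with DMSO and 85.0 and 30.05 CPM with the drug (3.60 ± 0.53, edgeR adjusted p = 0.000537), and it shares sequence with HNRNPH2. Reads of such transcripts and of the genes they join cannot be told apart in a table of gene counts.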
